A study of Mus musculus with 10 samples.

Results

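The lymphoid lineage genes described here are 39 genes that B, T or natural killer (NK) cells are known for, read in bone marrow cells of mice with MLL-AF9 acute myeloid leukaemia. They were chosen by name, 16 B cell genes and 23 T and NK cell genes, from what is known of these lineages. Earlier results of these data were known when they were chosen. Of the 39, 38 had a probe set that belongs to 1 gene symbol and were measured, 15 B cell genes and all 23 T and NK cell genes, of 20564 genes in all. The remaining gene, Cd79a, one of the signalling chains of the B cell receptor, was read only by a probe set that carries 2 symbols and has no value here. For the 13 genes with several probe sets the brightest on average was used, and values are log2 of the intensity.

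RNA came from sorted leukaemic cells of 3 genotypes on the C57B/6 background, with 3 Eed-null, 4 Ezh2-null and 3 WT arrays. In all 3 groups, WT included, the leukaemia carried the retrovirus MLL-AF9-ires-GFP, and recipients irradiated with 600 cGy received 100000 cells from replated leukaemic colonies and pIpC 2 to 3 weeks later to switch on Cre. Sorted cells were positive for GFP, which marks the retrovirus, and for YFP, which marks the activity of Cre, so the WT cells had been through Cre activation too. The promoter behind Cre and the sex and age of the mice are not given in the labels. The arrays of a group are called biological replicates, but the labels do not say how many donors or colonies stand behind them, so p-values measure the spread between these arrays. Eed and Ezh2 are subunits of Polycomb repressive complex 2 (PRC2), which places a repressive methyl mark on histone H3. The Eed probe set read 8.34 to 8.69 in Eed-null cells, 10.24 to 10.79 in Ezh2-null cells and 10.20 to 10.65 in WT cells, and the difference of -1.89 from WT in Eed-null cells was called (SE 0.21, limma, adjusted p = 0.00797). The Ezh2 probe set read 9.49 to 9.71 in Eed-null cells, 8.91 to 9.36 in Ezh2-null cells and 9.35 to 10.44 in WT cells, so that 1 WT array lay within the range of the Ezh2-null arrays, and the difference of -0.84 from WT in Ezh2-null cells was not called (SE 0.25, adjusted p = 1.00). Whether these probe sets lie in the deleted parts was not determined. The median intensity was 137 to 144 on all arrays.

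Lymphoid and myeloid cells descend from shared progenitors, and each lineage is set up by its own transcription factors. Ebf1 and Pax5 start and hold the B cell programme, and Gata3, Tcf7 and Bcl11b do so for T cells. Developing B cells then cut and join their antigen receptor genes with the Rag1 and Rag2 recombinase, test the result with a surrogate light chain, and carry a receptor with the chains Cd79a and Cd79b. T cells carry a receptor coupled to the Cd3 chains, and NK cells and cytotoxic T cells store perforin and granzymes in granules. In myeloid cells most of these genes are silent, and PRC2 is known as one of the complexes that mark silent lineage genes.

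The myeloid label was checked against marker genes. All 8 measured markers of granulocyte and monocyte progenitors, Mpo and Elane among them, and all 14 measured granulocyte markers lay above the array's median of all genes on every array. Of the 13 monocyte and macrophage markers, 7 lay above it on every array and 1 lay below it on every array. Of the lymphoid genes, 23 of 38 lay below it on every array and 5 lay above it on every array. Lists of other genes of these lineages, taken up further below, were mixed. Above it on every array lay 12 of 22 other B cell genes, 8 of 30 other T and NK cell genes and 7 of 11 lymphoid progenitor genes. Below it on every array lay 6, 16 and 2, in that order. These lists hold genes that myeloid cells also express, Syk, Cd37 and Ikzf1 among them. Ly86 stands both in the other B cell list and in the monocyte and macrophage list. The mean over the 15 B cell genes was 6.39 to 6.55 in Eed-null cells, 6.34 to 6.52 in Ezh2-null cells and 6.26 to 6.39 in WT cells, a span of less than a log2 unit over all arrays. Over the 23 T and NK cell genes it was 6.56 to 6.64 in Eed-null cells, 6.31 to 6.56 in Ezh2-null cells and 6.38 to 6.44 in WT cells, so that for this list each Eed-null array lay above each WT array. Myeloid markers spread more between arrays: the mean over granulocyte markers was 11.77 to 12.67 in Eed-null cells, 11.91 to 12.64 in Ezh2-null cells and 10.60 to 12.18 in WT cells, lowest on WT replicate 3. The mean over the 13 monocyte and macrophage markers was 8.56 to 9.65 in Eed-null cells, 9.23 to 10.25 in Ezh2-null cells and 9.38 to 10.38 in WT cells. Their part in any lymphoid gene's value was not tested. RMA values come without detection calls, so a low value does not show that a gene is silent. Probe sets of different genes bind with different strength, so a place above or below the array median describes the probe set's signal and is no measure of one gene's abundance against another's.

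**Figure D1:**
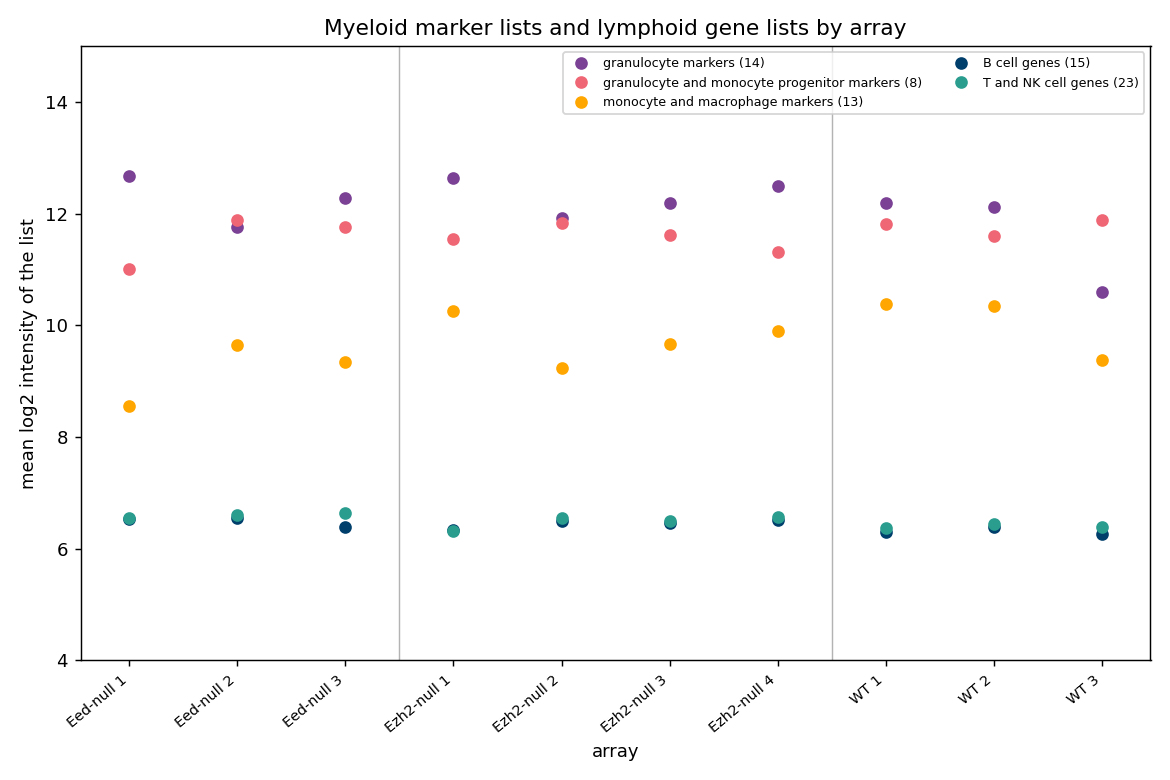
Mean log2 intensity over the measured genes of each list on each array, with Eed-null, Ezh2-null and WT arrays from left to right. The B cell list stays between 6.26 and 6.55 and the T and NK cell list between 6.31 and 6.64, while the granulocyte list reaches 12.67.

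Receptor genes of B cells overlapped between genotypes, apart from Ms4a1. Cd79b, the signalling partner of Cd79a in the B cell receptor, had 7.49, 9.63 and 8.33 in Eed-null cells, 7.62, 7.97, 8.13 and 7.98 in Ezh2-null cells and 8.09, 7.98 and 8.20 in WT cells. One Eed-null array, replicate 2, stood above every other array, and another, replicate 1, stood below all of them. The difference between Eed-null and Ezh2-null cells was 0.56 (SE 0.39, limma, adjusted p = 0.676), which was -0.02 without replicate 2 and 1.05 without replicate 1. Ms4a1, the gene of the B cell surface protein CD20, had 4.91, 4.83 and 4.86 in Eed-null cells, 4.89, 4.92, 4.91 and 4.82 in Ezh2-null cells and 4.92, 5.03 and 5.04 in WT cells. All values of either null group were below the lowest WT value, though the closest Ezh2-null value equals it to 2 decimals. The differences from WT were -0.13 in Eed-null cells (SE 0.08, limma, adjusted p = 0.624) and -0.11 in Ezh2-null cells (SE 0.08, adjusted p = 1.00), neither called. The mean of both Ms4a1 probe sets turned the Eed-null difference to 0.30. Cd22, an inhibitory receptor of B cells, ranged from 5.68 to 7.31, with both ends of that range among the Eed-null arrays. Cr2, the complement receptor CD21, ranged from 6.48 to 6.93.

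Bank1, an adaptor that couples the B cell receptor to calcium release, had the smallest p-value of the members in Ezh2-null against WT cells. It had 6.42, 6.11 and 5.69 in Eed-null cells, 7.13, 7.07, 6.60 and 7.48 in Ezh2-null cells, and 6.16, 5.45 and 4.75 in WT cells. Every Ezh2-null value was above every WT value and above every Eed-null value, and the Eed-null and WT arrays overlapped. The Ezh2-null mean exceeded WT by 1.62 on the log2 scale (SE 0.31, 95% interval 0.92 to 2.31), a 3.07-fold higher intensity. Among 20564 genes this was the 13th smallest p-value, 0.000377, and after adjustment over all of them it was not called (limma, adjusted p = 0.597, and 0.151 to 1.00 over the alternatives). Leaving out each array in turn gave differences between 1.26 and 1.97, and the ComBat-adjusted table of the authors gave 1.55. The lowest Bank1 value, in WT replicate 3, came from the array with the lowest granulocyte marker mean, and without that array the difference was 1.26. Between Eed-null and Ezh2-null cells Bank1 differed by -0.99 (SE 0.31, limma, adjusted p = 0.426), and between Eed-null and WT cells by 0.62 (SE 0.34, adjusted p = 0.565), which was 0.27 without WT replicate 3 and 0.97 without WT replicate 1.

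The other B cell signalling genes overlapped between genotypes. Blk, a kinase downstream of the B cell receptor, had 6.24, 5.95 and 6.13 in Eed-null cells, 5.80, 5.97, 5.90 and 6.14 in Ezh2-null cells and 5.78, 6.21 and 5.95 in WT cells. The 3 groups overlapped. Blnk, the adaptor that links that receptor to downstream enzymes, ranged from 4.84 to 5.53 over all arrays.

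The surrogate light chain genes, expressed in early B cell precursors, differed in how far single arrays spread. Vpreb1 had 8.66, 6.61 and 6.97 in Eed-null cells, 7.16, 8.10, 7.26 and 7.03 in Ezh2-null cells and 7.22, 6.96 and 7.31 in WT cells. Eed-null replicate 1 was the highest array, followed by Ezh2-null replicate 2, while the lowest was Eed-null replicate 2. Vpreb3 had 7.14, 6.93 and 7.10 in Eed-null cells, 6.84, 7.31, 7.20 and 7.19 in Ezh2-null cells and 6.95, 7.14 and 7.13 in WT cells. Igll1, the other surrogate chain gene, had 7.38, 7.50 and 7.41 in Eed-null cells, 7.17, 7.37, 7.26 and 7.45 in Ezh2-null cells and 7.29, 7.57 and 7.46 in WT cells. Neither had an array apart from the rest, and the groups overlapped.

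The recombinase genes lay below the array median of all genes on every array. Rag1 had 5.57, 5.22 and 5.50 in Eed-null cells, 5.07, 5.28, 5.81 and 5.25 in Ezh2-null cells and 5.16, 5.26 and 5.20 in WT cells. Rag2 had 6.66, 6.90 and 6.21 in Eed-null cells, 6.42, 6.38, 6.42 and 6.42 in Ezh2-null cells and 6.09, 6.59 and 6.30 in WT cells. The differences between null and WT cells were 0.22 (SE 0.17, Eed-null) and 0.14 (SE 0.16, Ezh2-null) for Rag1, and the groups overlapped for both genes. Without Ezh2-null replicate 3 the Ezh2-null difference of Rag1 was -0.01, and without Ezh2-null replicate 1 it was 0.24.

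Both factors that start and hold the B cell programme had Eed-null values above all WT values, with no call. Pax5 had 8.08, 7.80 and 8.29 in Eed-null cells, 7.52, 7.67, 7.78 and 7.77 in Ezh2-null cells and 7.51, 7.74 and 7.69 in WT cells. Each Eed-null value was above every value of the other groups, by 0.41 over WT (SE 0.16, limma, adjusted p = 0.437) and 0.37 over Ezh2-null cells (SE 0.15, adjusted p = 0.517), neither called. Ebf1 had 7.88, 7.75 and 7.79 in Eed-null cells, 7.31, 7.55, 7.80 and 7.87 in Ezh2-null cells and 7.65, 7.54 and 7.47 in WT cells. Its Eed-null values stood above WT by 0.25 (SE 0.17, adjusted p = 0.639) but not apart from Ezh2-null. With the mean of its 5 probe sets the difference was 0.11, and the dimmer ones gave 0.20, 0.14, -0.04 and -0.0009. Pou2af1, a coactivator of B cells, ranged from 3.31 to 4.04.

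Promoter sequences are shown for 4 genes that the values above and below turn on, to set a CpG-rich promoter beside CpG-poor ones, and these 4 were chosen after their values were seen. Each is the 250 bases before the transcription start in RefSeq on the mouse build GRCm38.p6, on the minus strand of the chromosome, 5′ to 3′, with CpG pairs in capitals. Bank1 lies at chr3:136326067-136326316, Il7r at chr15:9529877-9530126, Cd22 at chr7:30879029-30879278 and Pax5 at chr4:44710695-44710944.
Bank1: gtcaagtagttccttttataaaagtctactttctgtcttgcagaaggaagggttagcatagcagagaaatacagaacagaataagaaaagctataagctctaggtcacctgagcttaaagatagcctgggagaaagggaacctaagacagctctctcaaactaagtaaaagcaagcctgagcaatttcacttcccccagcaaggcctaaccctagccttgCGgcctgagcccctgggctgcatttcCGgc
Il7r: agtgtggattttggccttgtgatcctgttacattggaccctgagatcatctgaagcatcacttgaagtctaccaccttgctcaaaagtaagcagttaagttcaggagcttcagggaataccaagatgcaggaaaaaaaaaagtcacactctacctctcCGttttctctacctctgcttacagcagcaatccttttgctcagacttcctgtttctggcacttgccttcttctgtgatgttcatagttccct
Cd22: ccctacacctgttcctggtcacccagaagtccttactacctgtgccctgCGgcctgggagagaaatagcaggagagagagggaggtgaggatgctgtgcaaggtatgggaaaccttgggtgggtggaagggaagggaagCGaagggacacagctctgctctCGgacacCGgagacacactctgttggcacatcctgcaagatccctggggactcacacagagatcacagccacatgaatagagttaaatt
Pax5: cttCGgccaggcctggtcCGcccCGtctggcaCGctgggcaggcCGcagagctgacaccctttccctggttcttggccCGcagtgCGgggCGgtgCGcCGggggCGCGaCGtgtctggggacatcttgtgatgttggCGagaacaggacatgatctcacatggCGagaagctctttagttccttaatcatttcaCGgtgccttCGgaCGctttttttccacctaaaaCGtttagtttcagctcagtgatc
These stretches held 2, 1, 4 and 19 CpG pairs, in the order shown.

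RefSeq windows from 250 bases before to 50 after the start were matched for 29 of the 38 measured genes. Of these, 4 were CpG-rich (GC of at least 50% and an observed over expected CpG ratio of at least 0.6), namely Pax5, Ebf1, Gata3 and Tcf7, all of them transcription regulators, which is 13.8% against 57.8% of all 14275 genes with a window. A gene with several windows counted as CpG-rich if any passed, and Ebf1 and Tcf7 each had another window that did not. In Eed-null against WT cells these 4 CpG-rich genes had a median difference of 0.20 on the log2 scale, all positive. Over all CpG-rich genes the median was -0.02, with 47.8% positive. The other 25 had a median of 0.14 with 22 positive, against 0.05 with 61.05% positive over all other genes with a window. Motif searches were made in 35 windows of the members on both strands, and an overlap with another motif was allowed. The PU.1 motif GAGGAAGT was found in 1 of them, Cd5, where 3.20% of 32851 windows of the same length held it. The RUNX motif TGTGGT was found in 14 windows, Il7r among them and overlapping windows of Ncr1 each counted, where 16.8% of all windows held it. The Il7r match does not lie within the stretch shown above. Such matches describe the letters only.

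Among T cell receptor genes, by brightest probe set, Cd3d in Ezh2-null cells and the CD8 chains in Eed-null cells did not overlap with WT. None was called. Cd3d, a chain of the T cell receptor complex, had 7.48, 7.01 and 6.87 in Eed-null cells, 7.24, 7.25, 7.66 and 7.44 in Ezh2-null cells and 7.04, 7.08 and 6.83 in WT cells. All Ezh2-null values were above all WT values, by 0.42 (SE 0.17, limma, adjusted p = 1.00), while the Eed-null arrays overlapped both. Cd3g, another chain, had 5.86, 5.77 and 5.96 in Eed-null cells, 5.59, 5.50, 5.57 and 5.95 in Ezh2-null cells and 5.78, 5.75 and 5.88 in WT cells, with all groups overlapping. The chain Cd3e ranged from 6.10 to 6.49 and the coreceptor Cd4 from 6.63 to 7.12. A dimmer Cd4 probe set read 6.72 to 6.81 in Eed-null cells, 6.52 to 6.62 in Ezh2-null cells and 6.40 to 6.58 in WT cells. The difference between Eed-null and WT cells was 0.26 by that probe set and -0.03 by the brighter one, neither called. Cd8a, a chain of the coreceptor CD8, had 7.66, 7.70 and 7.74 in Eed-null cells, 7.52, 7.40, 7.64 and 7.83 in Ezh2-null cells and 7.46, 7.63 and 7.55 in WT cells. Cd8a and its partner chain Cd8b1 were above every WT array in every Eed-null array, by 0.15 (SE 0.15) and 0.25 (SE 0.14), neither called, and both overlapped between Eed-null and Ezh2-null arrays. Cd8a stood apart from WT only by the brightest of its 5 probe sets. The dimmer ones overlapped, with differences of 0.04, 0.05, 0.14 and 0.04.

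T cell signalling genes overlapped between genotypes. Zap70, a kinase of the T cell receptor, had 7.63, 7.59 and 7.94 in Eed-null cells, 7.48, 7.71, 7.66 and 7.72 in Ezh2-null cells and 7.42, 7.98 and 7.63 in WT cells. Lat, the adaptor that Zap70 phosphorylates, had 7.51, 7.93 and 8.16 in Eed-null cells, 7.66, 7.99, 7.83 and 7.89 in Ezh2-null cells and 7.72, 7.75 and 7.72 in WT cells. Lck, the kinase of the coreceptors, ranged from 6.20 to 8.12 and was high only on Eed-null replicate 1, by 1 of 4 probe sets.

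The T cell surface genes held the largest differences between Eed-null and WT cells among the T and NK cell genes. Cd2, an adhesion molecule, had 7.88, 7.85 and 7.88 in Eed-null cells, 7.31, 7.59, 7.44 and 7.57 in Ezh2-null cells, and 7.50, 7.28 and 7.39 in WT cells. The Eed-null arrays were tight and above every other array, by 0.48 over WT (SE 0.14, 95% interval 0.18 to 0.78, unadjusted p = 0.00495, limma, adjusted p = 0.264) and 0.39 over Ezh2-null cells (SE 0.13, adjusted p = 0.428). Leaving out each array in turn kept the difference from WT between 0.43 and 0.53. Thy1, a surface glycoprotein of mouse T cells, had 6.47, 8.80 and 6.66 in Eed-null cells, 6.01, 6.19, 6.15 and 6.41 in Ezh2-null cells and 6.32, 6.36 and 5.62 in WT cells. Eed-null values were above all others, by 1.21 over WT (SE 0.50, limma, adjusted p = 0.450), but replicate 2 lay far above the rest and without it the difference was 0.46. Cd5, a receptor that dampens T cell receptor signals, had 6.65, 7.11 and 7.22 in Eed-null cells, 6.63, 6.52, 7.04 and 6.96 in Ezh2-null cells and 6.63, 5.85 and 6.73 in WT cells. It differed by 0.59 between Eed-null and WT cells (SE 0.25, limma, adjusted p = 0.460) and by 0.31 without WT replicate 2, the lowest array.

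The T cell transcription factors overlapped between genotypes. Tcf7, needed for early T cells, had 7.20, 7.28 and 7.56 in Eed-null cells, 6.93, 7.36, 7.16 and 7.28 in Ezh2-null cells and 6.75, 7.33 and 7.53 in WT cells, with all groups overlapping. Gata3 and Bcl11b ranged from 5.37 to 5.92 and from 6.95 to 7.35.

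Among NK cell and cytotoxic genes, Nkg7, a granule membrane protein, varied between arrays of one genotype. It had 8.57, 10.31 and 10.01 in Eed-null cells, 9.58, 9.18, 9.88 and 9.50 in Ezh2-null cells and 9.84, 8.87 and 9.52 in WT cells. Eed-null arrays held both the highest and the lowest value. The granule enzymes Gzma and Gzmb and the pore-forming Prf1 ranged from 4.54 to 4.83, 6.57 to 6.96 and 5.51 to 6.02. Ncr1, an activating NK receptor, had 4.71, 4.91 and 4.64 in Eed-null cells, 4.60, 4.57, 4.63 and 4.54 in Ezh2-null cells and 4.58, 4.64 and 4.43 in WT cells, all Eed-null values above all Ezh2-null ones by 0.17 (SE 0.09, limma, adjusted p = 0.605), which was 0.09 without Eed-null replicate 2. Klrd1, a partner of NK lectin receptors, ranged from 3.43 to 3.96. Il2rb, a chain of receptors for interleukin 2 and interleukin 15, ranged from 5.89 to 6.39. Il7r, the interleukin 7 receptor needed by early lymphocytes, had 4.40, 4.02 and 4.52 in Eed-null cells, 4.26, 6.57, 4.59 and 4.04 in Ezh2-null cells and 4.05, 4.29 and 3.96 in WT cells. One array, Ezh2-null replicate 2, stood apart, though not by the dimmer Il7r probe set. Without that array the difference between Ezh2-null and WT cells was 0.19 in place of 0.76 (SE 0.49, limma, adjusted p = 1.00).

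**Figure D2:**
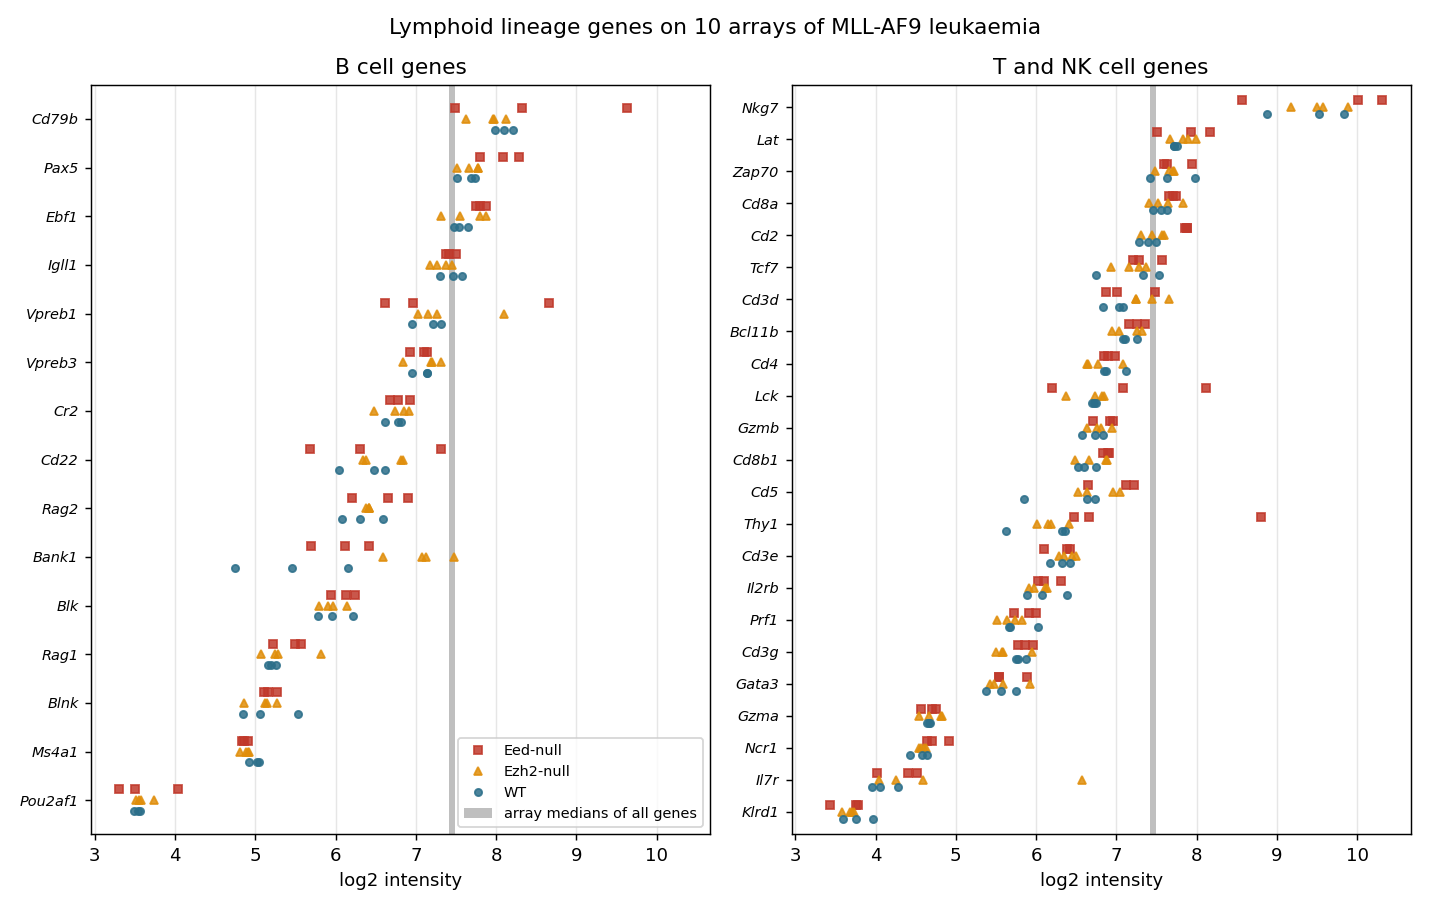
Log2 intensity of each of the 38 measured genes on every array, with 1 point per array and, within each gene, Eed-null above Ezh2-null above WT. The grey band marks the array medians of all genes. Bank1 stands out in Ezh2-null arrays, Cd2 in Eed-null arrays, and single arrays lie apart for Cd79b, Vpreb1, Thy1 and Il7r.

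Ezh2-null cells were set against WT cells, to ask what the loss of this PRC2 subunit did to lymphoid genes. No member was called (0 of 38), where 0.0243% of all genes were. At an unadjusted p under 0.05, 2 members were past it, Bank1 and Cd3d, where 3.74% of all genes were. Bank1 and Cd3d were higher and Ms4a1 lower with no overlap between the groups, 3 of 38, where 5.00% of all genes had none. The median difference was 0.06 over the B cell genes, 10 of 15 positive, and 0.05 over the T and NK cell genes, 14 of 23 positive. Over all genes it was -0.02, with 9191 of 20564 positive. Leaving out each array in turn gave -0.0025 to 0.09 for the B cell genes and 0.0064 to 0.10 for the T and NK cell genes, in both lists lowest without WT replicate 1. For 33 of the 38 the 95% interval of the difference lay within 1 log2 unit of 0, where it did for 86.1% of all genes.

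Eed-null cells were set against WT cells to ask the same of the other subunit. No member was called (0 of 38), where 0.131% of all genes were. Pax5, Cd2, Thy1 and Cd5 were past an unadjusted p of 0.05, 4 of 38 and all higher in Eed-null cells, where 10.4% of all genes were past it. Pax5, Ebf1, Cd8a, Cd8b1, Cd2 and Thy1 were higher and Ms4a1 lower with no overlap, 7 of 38, where 12.8% of all genes had none. The median difference was 0.12 over the B cell genes (12 of 15 positive) and 0.14 over the T and NK cell genes (20 of 23 positive), against 0.03 over all genes. For the B cell genes, leaving out Eed-null replicate 3 moved the median to 0.19 and leaving out WT replicate 2 moved it to 0.23, and that of the T and NK cell genes was 0.09 without either WT replicate 1 or Eed-null replicate 3. With all genes ranked by mean and split in 3 equal parts, 18 of the 38 members fell in the dimmest part, 19 in the middle one and 1, Nkg7, in the brightest. Over all genes, 63.8% of the dimmest part and 59.1% of the middle one were positive, with medians of 0.06 and 0.05. The B cell genes had medians of 0.10 in the dimmest part (7 of 8 positive) and 0.25 in the middle one (5 of 7). Those of the T and NK cell genes were 0.07 (8 of 10) and 0.15 (11 of 12). The 95% interval lay within 1 log2 unit of 0 for 30 of the 38, where it did for 78.3% of all genes. Markers of plasmacytoid dendritic cells, which share some genes with lymphocytes, had a higher mean on the Eed-null than on the WT arrays too. Their mean over 10 genes was 8.26 to 8.55 in Eed-null cells, 8.10 to 8.26 in Ezh2-null cells and 8.01 to 8.10 in WT cells. The Eed-null and Ezh2-null arrays overlapped narrowly, and 0 of 10 were called. Against WT, 9 of 10 were positive, from -0.11 for Cox6a2 to 0.68 for Bst2, with Siglech at 0.13. Bst2 was highest on Eed-null replicate 1, at 10.24. The part of these markers in the lymphoid values was not tested. The mean over 7 plasma cell markers overlapped, at 6.77 to 6.86 in Eed-null cells, 6.67 to 6.87 in Ezh2-null cells and 6.81 to 7.09 in WT cells.

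Eed-null and Ezh2-null cells were then compared with each other. No member was called (0 of 38), where 0.0778% of all genes were, and Pax5, Cd2, Thy1 and Bank1 were past an unadjusted p of 0.05, 4 of 38, where 9.18% of all genes were. Pax5, Cd2, Thy1 and Ncr1 were higher and Bank1 lower in Eed-null cells with no overlap between the groups, 5 of 38, where 10.5% of all genes had none. The median difference was 0.08 over the B cell genes, 11 of 15 positive, and 0.11 over the T and NK cell genes, 18 of 23 positive. Over all genes it was 0.04, with 11925 of 20564 positive. Leaving out each array in turn gave 0.0040 to 0.13 for the B cell genes, lowest without Ezh2-null replicate 1 and highest without Eed-null replicate 3, and 0.07 to 0.16 for the T and NK cell genes, lowest without Ezh2-null replicate 1. By the same 3 parts, 71.8% of all genes in the dimmest and 61.6% in the middle one were positive. Their medians were 0.08 and 0.06. The B cell genes had medians of 0.05 in the dimmest part (5 of 8 positive) and 0.12 in the middle one (6 of 7). Those of the T and NK cell genes were 0.08 (6 of 10) and 0.12 (11 of 12). The 95% interval lay within 1 log2 unit of 0 for 33 of the 38, where it did for 82.9% of all genes. The Eed-null and Ezh2-null comparisons with WT share the WT arrays, so their values are given side by side only. In bulk RNA, fewer cells of a type and less RNA per cell cannot be told apart.

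**Figure D3:**
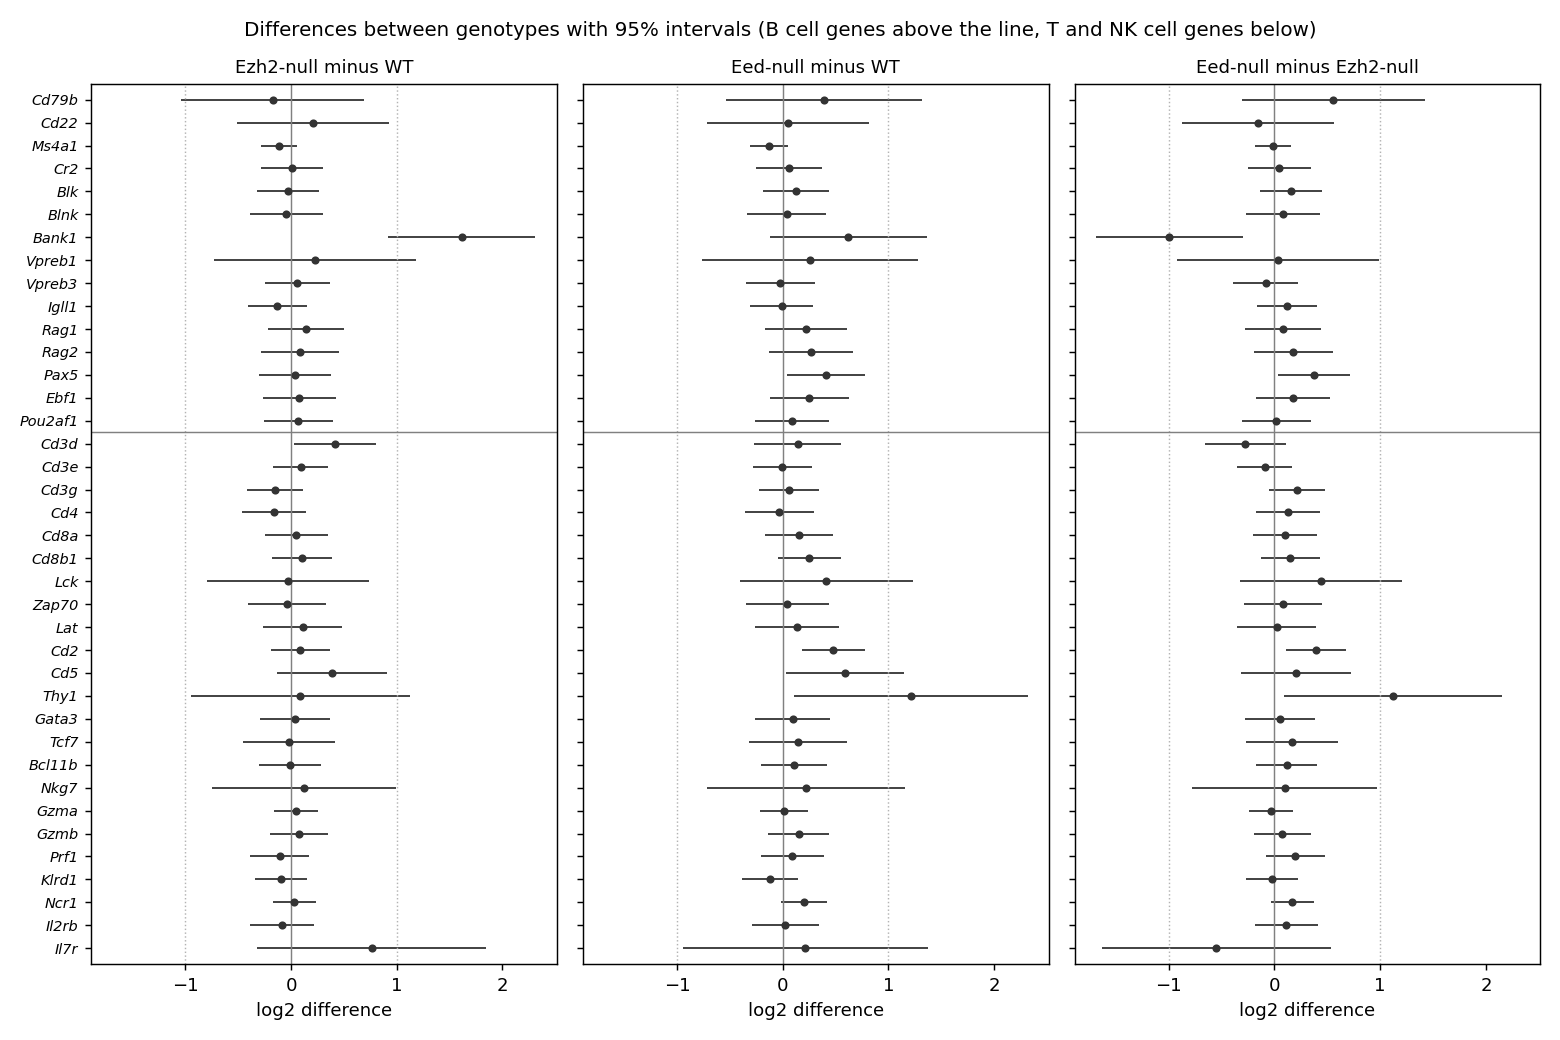
Log2 difference of each measured gene with its 95% interval in each comparison, with B cell genes apart from T and NK cell genes. Bank1 lies at 1.62 in Ezh2-null against WT and Cd2 at 0.48 in Eed-null against WT, and most intervals cross 0.

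Several genes were high or low on 1 array of a genotype, measured as more than 1 log2 unit from the mean of the other arrays of its group. Eed-null replicate 2 held high values of Cd79b, Cd22, Thy1 and Nkg7 and low values of Vpreb1 and Lck, 6 of 38, where 4.80% of all genes on that array were so far off in either direction. Eed-null replicate 1 held high values of Vpreb1 and Lck, and low values of Cd79b, Cd22, Thy1 and Nkg7, again 6 of 38, where 7.73% of all genes were so far off. Ezh2-null replicate 2 held a high value of Il7r only, where 2.91% were. With so few arrays in a group, 1 high array also lowers the others relative to it. Thy1 on Eed-null replicate 1, at 6.47, was low only in this sense and lay above every Ezh2-null and WT array. The remaining arrays held at most 1 such gene. These were a low Il7r on Ezh2-null replicate 4 (0.593% of all genes), a high Bank1 on WT replicate 1 (1.95%) and a low Bank1 on WT replicate 3 (5.82%). That Il7r value, 4.04, lay within the WT range of 3.96 to 4.29. Eed-null replicate 3 (3.02%), Ezh2-null replicates 1 (1.67%) and 3 (1.15%) and WT replicate 2 (4.97%) held 0 of the 38. Over all 10 arrays, 29 of the 38 genes spanned less than 1 log2 unit, which is 76.3%, where 63.4% of all genes did. At the other end, 5 of the 38 spanned over 2 log2 units, which is 13.2%, where 7.75% of all genes did.

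Probe sets of one gene did not always agree. A dimmer probe set of Ms4a1 read 7.56 on Eed-null replicate 1, against 3.66 to 4.54 on the other arrays, while its brighter probe set was level. A pair of dimmer Bcl11b probe sets read 8.92 and 6.89 on Ezh2-null replicate 2, against 6.14 to 6.96 and 5.60 to 6.07 on the other arrays, while the brightest one was level. That array was also the one with the high Il7r value, but only by the brighter of 2 Il7r probe sets. The dimmer Il7r probe set read 3.57 there, against 3.53 to 3.78 on the other arrays. None of the 24 dimmer probe sets of the members was called.

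**Figure D4:**
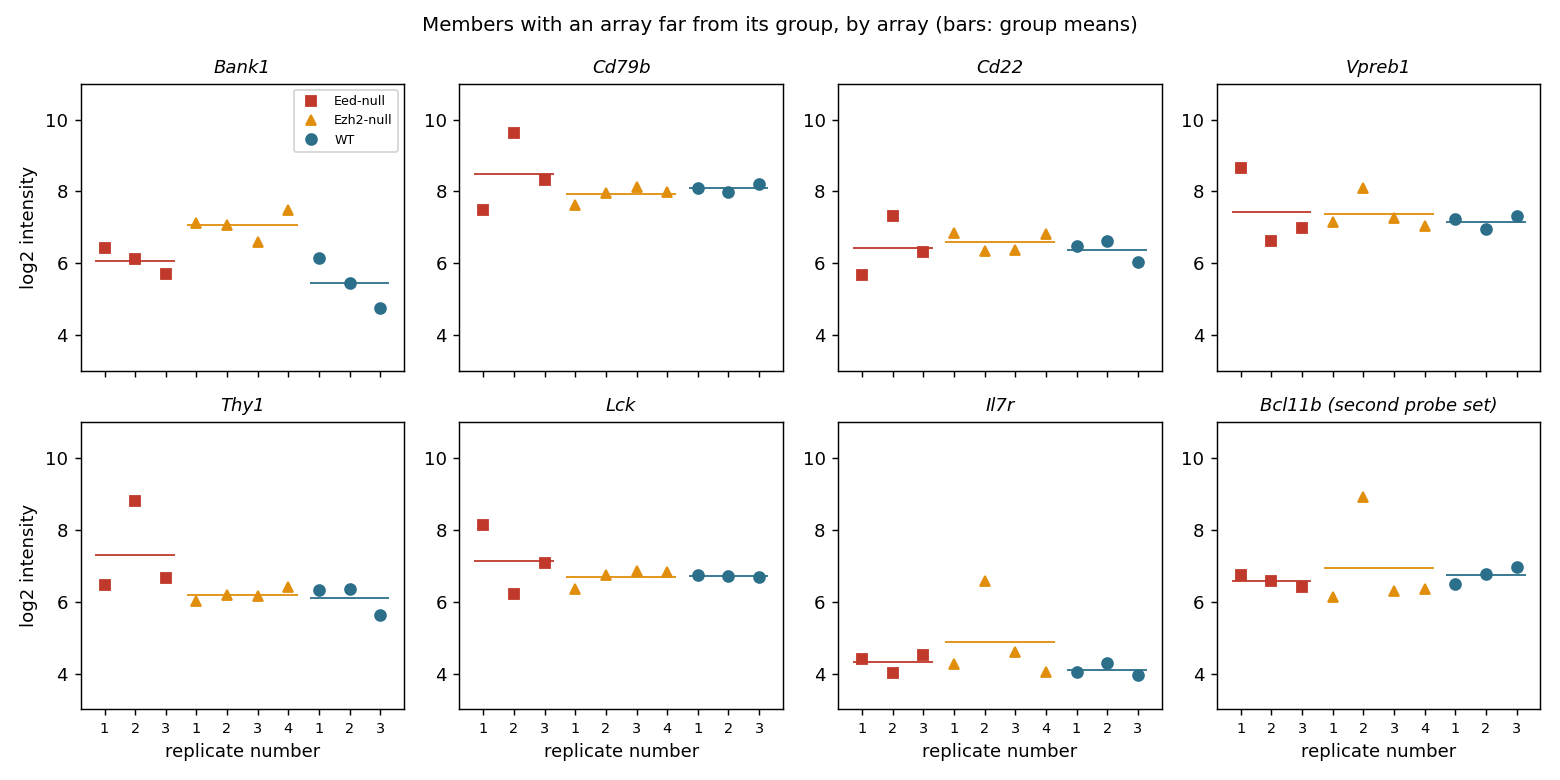
Log2 intensity on every array for genes with 1 array apart from the rest, with Eed-null, Ezh2-null and WT arrays from left to right and a line at each group's mean; Bcl11b is shown by a dimmer probe set. Eed-null replicate 2 is highest for Cd79b (9.63) and Thy1 (8.80), Eed-null replicate 1 for Vpreb1 (8.66), and Ezh2-null replicate 2 for Il7r (6.57).

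Other genes of these lineages, from lists of known genes, also gave no call in any comparison: 0 of 22 other B cell genes, 0 of 30 other T and NK cell genes and 0 of 11 lymphoid progenitor genes. Of these, Cd72, a B cell coreceptor, was 0.81 higher in Eed-null than in WT cells (SE 0.19, limma, adjusted p = 0.205), and Syk, a kinase used by B cells and myeloid cells alike, 0.63 higher (SE 0.19, adjusted p = 0.309). Irf4, a factor of activated lymphocytes and plasma cells, was 1.07 lower on the log2 scale in Eed-null cells (log2 difference -1.07, SE 0.35, adjusted p = 0.337). Ikzf1, a factor of lymphoid development that myeloid progenitors also express, was 0.75 higher (SE 0.19, adjusted p = 0.229), and Id2, an inhibitor of B cell factors, 1.70 higher (SE 0.54, adjusted p = 0.327). WT replicate 3 read 7.41 for Id2, the lowest of all arrays, where the other arrays read 9.54 to 11.09. Satb1, a chromatin organiser of T cells, was 0.56 higher (SE 0.26, adjusted p = 0.488).

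Of the other T and NK cell genes, 5 of 30 were past an unadjusted p of 0.05 in Eed-null against WT cells, all higher, where 10.4% of all genes were past it. Of the other B cell genes 4 of 22 were past it, 2 higher and 2 lower. The lymphoid progenitor genes had 2 of 11, all higher. In that comparison the median difference was 0.18 over the other T and NK cell genes, 22 of 30 positive. It was 0.02 over the other B cell genes, 11 of 22 positive, and 0.09 over the lymphoid progenitor genes, 9 of 11 positive. Over all genes it was 0.03. The T and NK cell genes with the smallest p here were Themis, a T cell signalling protein, at 0.28 (SE 0.09, limma, adjusted p = 0.327), the chemokine Ccl5 at 0.67 (SE 0.25, adjusted p = 0.399) and the NK receptor Klrb1c at 0.30 (SE 0.12, adjusted p = 0.436). In Ezh2-null against WT cells, Cd72 was also higher, by 0.45 (SE 0.18), and Id2 by 1.21 (SE 0.51). There the T cell costimulatory receptor Cd28 was 1.11 higher (SE 0.43), the lymphoid factor Ets1 0.68 higher (SE 0.35), Satb1 0.43 higher (SE 0.24), Klrb1c 0.24 higher (SE 0.11) and Cd37 0.24 higher (SE 0.14). The differences of Irf4 and of Foxo1, a factor of lymphoid development, were -0.56 (SE 0.33) and -0.37 (SE 0.19). All of these had an adjusted p of 1.00. Between Eed-null and Ezh2-null cells, Cd37, a tetraspanin of B cells and myeloid cells, differed by -0.63 (SE 0.14, adjusted p = 0.219), and Cd28 by -1.04 (SE 0.43, adjusted p = 0.518). Higher in Eed-null than in Ezh2-null cells, none called, were Syk by 0.51 (SE 0.18), the cathepsin Ctsw by 0.57 (SE 0.19), the T cell adaptor Trat1 by 0.34 (SE 0.13), Ikzf1 by 0.53 (SE 0.18), Foxo1 by 0.51 (SE 0.19) and Tox, a T cell nuclear protein, by 0.18 (SE 0.12).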

How the data were processed

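The deposited intensity values are RMA output, as the submitters' processing notes name that tool. They were on a linear scale and were turned into log2 values here, with a floor of 1. Another deposited table, adjusted with ComBat per its file header, served as an alternative for Ezh2-null against WT. Its 9 columns of another series were not used, and 16 values below 0 were set to the floor. Of 45101 probe sets, 37762 had 1 symbol. Controls (64), probe sets with no symbol (5820), several symbols (1399) or a date for a symbol (56) were left out. The probe set with the highest mean stood for each of 20564 genes. Names came from RefSeq for GRCm38.p6, with 31088 probe sets current, 3656 brought up to date and 3018 kept as given.

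All 10 arrays entered 1 limma fit (version 3.58.1, R 4.3.3, eBayes with trend, two-sided, 1 coefficient per genotype), adjusted by Benjamini-Hochberg over all genes and called at an adjusted p under 0.05. Values per array are given for the 6 genes of each list with the highest mean, the 4 with the smallest p in each of 3 comparisons, and those with an array apart by Dixon's rule. Of the other genes of the pathways, those with the smallest p are named, up to 3 per list and comparison, apart from a gene not reported here. The member genes and lists were chosen with earlier results of these data known. The number of arrays limits the precision.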

Additional observations from a re-analysis of the deposited data

Results flagged for a closer look

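Rag2, a subunit of the recombinase, had 6.42, 6.38, 6.42 and 6.42 in Ezh2-null cells. Replicate 2 lay away from the others by 0.923 of the group's whole range, above Dixon's critical value for 4 arrays. That range was only 0.04 log2 units, and chance flags about 1 in 20 groups.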

How the results depend on the processing

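No member was called under any of the 19 alternatives. Of 424 values of the members with the smallest p under alternatives, 421 kept their direction, 0 were called and 3 were reversed: Rag1 in Ezh2-null against WT gave -0.0101 without Ezh2-null replicate 3 (leaving out each array, -0.0101 to 0.24), Cd79b in Eed-null against Ezh2-null gave -0.0151 without Eed-null replicate 2 (-0.0151 to 1.05), and Ms4a1 in Eed-null against WT gave 0.30 with the mean of all probe sets, which brings in the dimmer probe set that was high on Eed-null replicate 1. The counts of genes called in the whole table moved more. In Ezh2-null against WT, 5 were called, against 10 with each probe set separately, 2 with quantile normalization, 3 with no trend and 0 to 4 leaving out each array. In Eed-null against WT, 27 were called, against 1 with only the groups compared, 43 with each probe set separately and 12 to 42 leaving out each array. In Eed-null against Ezh2-null, 16 were called, against 28 with the mean of all probe sets, 25 with each probe set separately and 13 to 36 leaving out each array. The cause was not tested. The median difference of B cell genes in Eed-null against WT was 0.12, but 0.25 with the lowest 40% of genes left out, 0.06 with quantile normalization and 0.10 to 0.23 leaving out each array, highest without WT replicate 2. That in Ezh2-null against WT was -0.0025 without WT replicate 1.

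Same-numbered samples correlated in their deviations by -0.23 to 0.36 over the 3 comparisons, and by 0.03 to 0.17 for Eed-null and Ezh2-null. This does not settle whether the numbers pair the samples. A sample correlated best with its own number in 3 of 6 cases for Ezh2-null and WT, 1 of 6 for Eed-null and WT and 6 of 6 for Eed-null and Ezh2-null, a hint from the data and not the design. With the replicate number as a block the counts called were 0 in Ezh2-null against WT, 16 in Eed-null against WT and 4 in Eed-null against Ezh2-null.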
